A study of Mus musculus with 10 samples.

Results

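The cathepsins are the proteases of the lysosome, and 10 genes of this family, Ctsa, Ctsb, Ctsc, Ctsd, Ctsf, Ctsh, Ctsk, Ctsl, Ctss and Ctsz, were followed during myogenic differentiation of C2C12 cells, a mouse myoblast line. They were chosen by gene name, and all 10 were found among the 35275 genes of the count table. Messenger RNA was sequenced in 5 libraries of C2C12 cells in growth medium with 10% fetal bovine serum, taken before differentiation, and in 5 libraries of cells on day 6 of differentiation, induced by a medium with 2% horse serum. All libraries come from the same unmodified line, with no other treatment, and it is not stated in the labels if the replicates are separate cultures. A p-value here therefore measures only the spread from library to library, which may be technical. In bulk libraries of this kind, fewer cells of a type and less RNA per cell cannot be told apart.

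Cathepsins are made as inactive precursors, tagged with mannose 6-phosphate in the Golgi, carried to endosomes by sorting receptors and activated in the acidic lysosome, where they degrade proteins delivered by endocytosis and autophagy. The family is defined by place and function and not by a common fold: CTSD is an aspartic protease, CTSA a serine carboxypeptidase, and the other 8 are papain-like cysteine proteases. Some are present in almost every cell, such as CTSB, CTSD and CTSL, while others are known for particular cells, such as CTSK of bone-resorbing osteoclasts and CTSS of antigen-presenting cells. In muscle, the lysosomal route of protein breakdown works beside the proteasome and the calpains. Many lysosomal genes are targets of the transcription factor TFEB and its relatives, which bind a core of the letters CACGTG.

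The libraries matched their labels at the defining muscle genes. The summed level of 9 myoblast and muscle markers was 933 to 1026 counts per 1000000 of the scaled library total (CPM) before differentiation. On day 6 the sum was 11298 to 16405 CPM. Des alone had a mean of 798 CPM before differentiation and 2604 CPM on day 6, and Myog went from 4.42 to 770 CPM. Of the 9 markers, 8 were higher on day 6, though Myod1 rose only 1.42-fold. Myf5 fell 2.01-fold, from 30.9 to 15.4 CPM. Library totals were 16288532 to 21622527 counts before differentiation and 15367909 to 20509280 counts on day 6. In a principal component analysis of the day 6 libraries alone, the first component held 49.5% of the variance and placed replicates 1 and 2 at -24.3 and -24.4 and replicates 3, 4 and 5 at 12.2 to 18.7. The summed muscle markers also split, at 15647.5 and 16404.6 CPM in day 6 replicates 1 and 2 and 11297.7 to 12324 CPM in replicates 3, 4 and 5. The log2 fold changes of the cathepsins that split by these libraries are therefore also given without them.

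The bases around the start sites are shown because the genes differ in whether they hold the TFEB core there. RefSeq windows of 250 bases before to 50 after the start (GRCm38.p6, the assembly of mm10) were found for 8 of the 10 genes, 9 windows in all, and Ctsb and Ctsh had no entry. Both strands were searched for CACGTG, for the longer TCACGTG, which contains it, and for CAGCTG, the E-box bound by MyoD and myogenin. CACGTG was present in windows of Ctsa, Ctsd, Ctsf and Ctsl, and in 7.15% of all 32851 windows of this length. TCACGTG was present in Ctsa and Ctsd and in 3.77% of all windows, and CAGCTG was present in Ctsa, Ctsd and Ctss and in 16.3% of all windows. Stretches of 30 bases with the matches in capitals are given 5′ to 3′ on the strand of the gene, from chr2:164833757-164833786 (plus strand, the downstream of both Ctsa windows), chr7:142388048-142388077 and chr7:142387908-142387937 (minus strand, Ctsd) and chr13:64370739-64370768 (minus strand, Ctsl).
Ctsa: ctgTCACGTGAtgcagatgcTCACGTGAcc
Ctsd, far match: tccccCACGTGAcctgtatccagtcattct
Ctsd, near match: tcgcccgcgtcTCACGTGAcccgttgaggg
Ctsl: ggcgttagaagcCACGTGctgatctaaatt
For the genes with the largest fold changes, the bases up to the start of the gene in the count table are shown in full, 214 for Ctsf (chr19:4854915-4855128, plus strand), with 1 match in capitals, and 250 for Ctsc (chr7:88277835-88278084, plus strand), which held none of these letters.
Ctsf: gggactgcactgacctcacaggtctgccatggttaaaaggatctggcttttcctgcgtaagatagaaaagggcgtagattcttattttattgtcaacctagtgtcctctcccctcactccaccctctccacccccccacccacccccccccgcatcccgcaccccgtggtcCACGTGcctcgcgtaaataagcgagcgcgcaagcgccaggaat
Ctsc: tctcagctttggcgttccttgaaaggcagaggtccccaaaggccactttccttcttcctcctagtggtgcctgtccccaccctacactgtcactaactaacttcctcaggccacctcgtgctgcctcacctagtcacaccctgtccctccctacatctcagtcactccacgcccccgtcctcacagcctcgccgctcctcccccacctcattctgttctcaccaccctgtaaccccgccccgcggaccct
The second Ctsa match begins at base 6 after the RefSeq start, and both Ctsa matches and the near Ctsd match lie inside the gene as the count table places it. A match is a description of these letters and not evidence of binding.

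Of the 10 cathepsin genes, 8 had enough counts to be tested, and 7 of these passed the filter on low counts in both conditions. Ctsc passed it only through its day 6 counts, so it had to differ and is left out of the counts in this paragraph. Of the 7 genes, 6 passed as higher on day 6 while 0 passed as lower, and Ctsl passed in neither direction. The call was an adjusted p below 0.05 in the quasi-likelihood test of edgeR, with Benjamini-Hochberg adjustment across the 13085 genes tested. Of all genes tested, 79.8% were called, 40.1% as higher and 39.7% as lower. The count of lower cathepsins was also 0 at an unadjusted p under 0.05, and 0 with DESeq2. The libraries of the conditions did not overlap in CPM for 4 of the 7, Ctsa, Ctsb, Ctsd and Ctsf, against 69.1% of all genes tested. A log2 fold change over 1 was found for 3 of the 7 among these calls, Ctsa, Ctsd and Ctsf, against 18.1% of all genes tested. The median log2 fold change of the 7 genes was 0.74 and that of all genes tested was 0.01. Here and below, the values for all genes tested include genes that, like Ctsc, passed the filter through 1 condition only. Ctsk and Ctss had too few counts to be tested.

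Markers of fibroblasts were higher on day 6 together with the cathepsins. Of 9 in the table, 7 were tested, 5 of these passed the filter in both conditions and 5 of the 5 were called higher, against 40.1% of all genes tested. The summed level of the list was 1668 to 1863 CPM before differentiation and 4982 to 6298 CPM on day 6. Day 6 replicates 1 and 2 stood at 4982 and 5273 CPM, below replicates 3, 4 and 5 at 6220 to 6298 CPM. Dcn, the proteoglycan decorin, rose 169-fold from 189 to 31075 counts, Pdgfra rose 1.87-fold, and the collagen gene Col3a1 rose 4.33-fold from 959 CPM. Lum and Pi16, which passed the filter only through day 6, had 1 and 31 counts before differentiation and 1261 and 322 counts on day 6. Thy1 and Tcf21 had 2 counts and 0 counts in all. The part of such cells in the results was not tested.

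Levels of different genes were compared as FPKM, the count per kilobase of gene and per 1000000 counts. Their order therefore depends on the gene lengths used. Before differentiation the order of the mean levels was Ctsl, Ctsd, Ctsb, Ctsz, Ctsa, Ctsf, Ctsh, Ctsk, Ctss and Ctsc. The first 5 spanned 32.9 to 324 FPKM and their libraries did not overlap with those of their neighbours in the order, while Ctsf and Ctsh, at 1.00 ± 0.288 and 0.773 ± 0.183 FPKM (SD, n = 5), overlapped, and so did Ctsk, Ctss and Ctsc in their order near 0. On day 6 Ctsd stood first and Ctsl second, followed by Ctsb, Ctsz, Ctsa, Ctsf, Ctsh, Ctsc, Ctsk and Ctss. Here the neighbours Ctsh, Ctsc and Ctsk, at 1.28 ± 0.184, 0.814 ± 0.468 and 0.309 ± 0.186 FPKM, overlapped in their libraries.

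**Figure D1:**
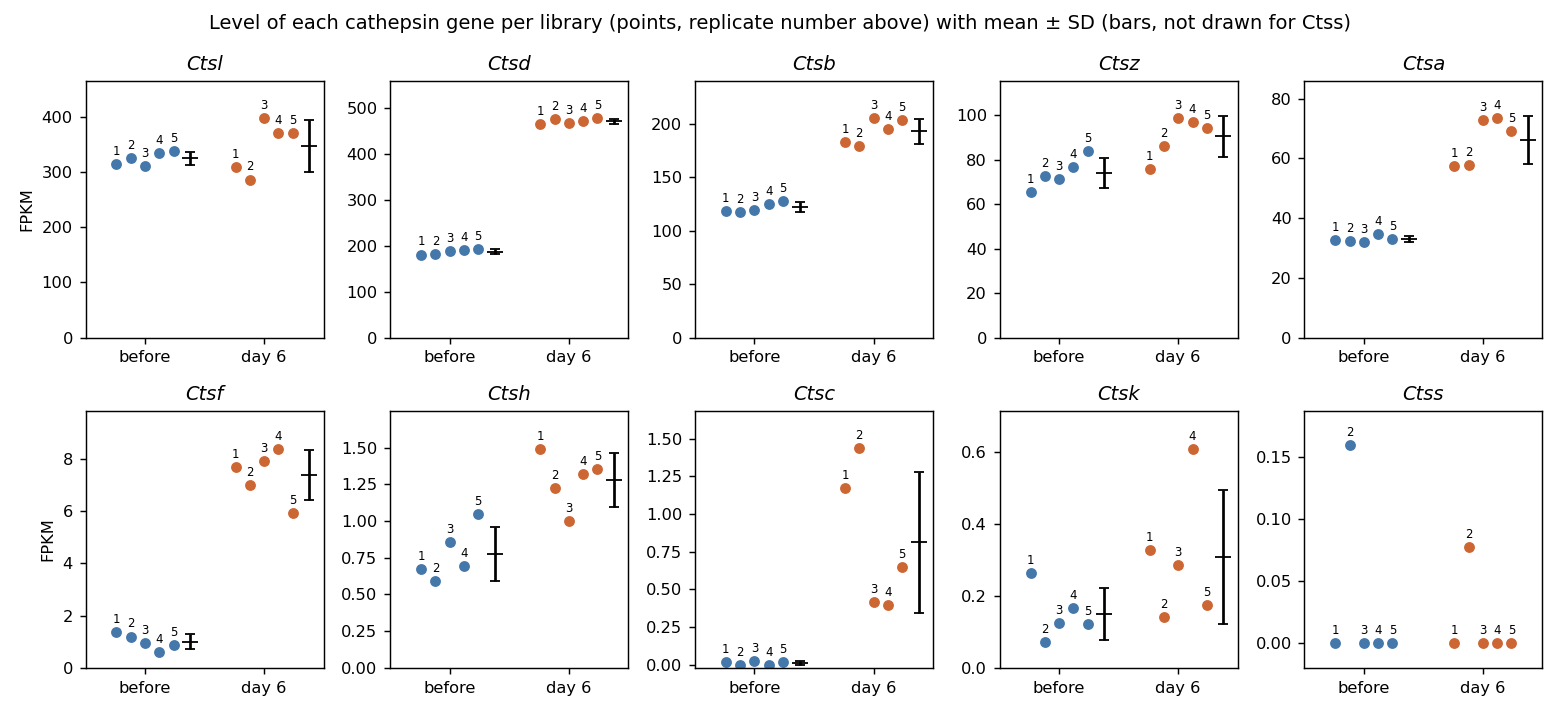
Level of each of the 10 cathepsin genes in FPKM (y axis, a scale of its own for each gene) in the 5 libraries before differentiation and the 5 of day 6, numbered by replicate, with mean ± SD as bars (not drawn for Ctss). Ctsd moved from 181 to 194 FPKM up to 466 to 478 FPKM, while Ctsl stood at 286 to 397 FPKM on day 6 around its earlier 311 to 338 FPKM.

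Ctsd encodes the aspartic endopeptidase cathepsin D, which starts the breakdown of many lysosomal substrates, and lies on chromosome 7 (mm10, minus strand, 142371148 to 142388038). In replicates 1 to 5 its level was 181, 182, 189, 191 and 194 FPKM before differentiation and 466, 477, 467, 472 and 478 FPKM on day 6. All 5 day 6 libraries lay above all earlier ones and stayed close to each other, with an SD of 5.54 FPKM around a mean of 472 FPKM. The increase was 2.55-fold, from 397 ± 14.0 to 1012 ± 13.9 CPM (SD, n = 5). The difference on the log2 scale was 1.35 (standard error 0.0434, edgeR adjusted p = 4.06e-15). Ctsd was thus the cathepsin with the highest level on day 6 and the largest increase among the 5 abundant ones.

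Ctsa encodes the serine carboxypeptidase cathepsin A, also called protective protein because it shields the lysosomal glycosidases GLB1 and NEU1 in a complex, and lies on chromosome 2 from 164832873 to 164841032. Its level was 32.7, 32.2, 32.1, 34.6 and 33.0 FPKM in replicates 1 to 5 before differentiation and 57.3, 57.8, 73.0, 73.4 and 69.3 FPKM on day 6. The conditions did not overlap, and on day 6 replicates 1 and 2 were below replicates 3, 4 and 5. The gene rose 2.03-fold from 120 ± 3.04 to 245 ± 28.3 CPM (SD, n = 5). The difference on the log2 scale was 1.02 (standard error 0.0668, edgeR adjusted p = 1.05e-10), 1.15 without day 6 replicates 1 and 2 and 0.88 without replicates 3, 4 and 5. Its partners differed from each other. Neu1 rose 3.37-fold, from 17.7 ± 2.91 to 59.6 ± 2.48 CPM (adjusted p = 4.51e-12), and every day 6 library lay above every earlier one.

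Glb1, the beta-galactosidase of the complex, had 32.7, 29.6, 32.9, 36.0 and 39.4 CPM before differentiation and 28.8, 28.2, 42.3, 46.3 and 37.3 CPM on day 6 (log2 fold change 0.10, edgeR adjusted p = 0.524). Day 6 replicates 1 and 2 were at or below the earlier range, and replicates 3 and 4 were above it. Without day 6 replicates 1 and 2 its log2 fold change was 0.32 (edgeR adjusted p = 0.000753), and without replicates 3, 4 and 5 it was -0.22 (edgeR adjusted p = 0.0382), so the call depended on which libraries entered.

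Ctsb encodes cathepsin B, a cysteine protease that both cuts within proteins and removes dipeptides from their C-terminal end, and lies on chromosome 14 from 63122462 to 63145919. Its level was 119, 118, 119, 125 and 128 FPKM in replicates 1 to 5 before differentiation and 183, 179, 205, 195 and 203 FPKM on day 6. The conditions did not overlap, and day 6 replicates 1 and 2 were again the lowest of their group. The increase was 1.60-fold, from 574 ± 20.2 to 921 ± 48.0 CPM (SD, n = 5). The difference on the log2 scale was 0.68 (standard error 0.0483, edgeR adjusted p = 3.34e-10), 0.75 without day 6 replicates 1 and 2 and 0.64 without replicates 3, 4 and 5.

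Some of these genes overlap others on the opposite strand, and the strand setting of the counting is not given in the sources used here. In GENCODE M21, 774 of 6051 exon bases of Ctsb (12.8%) are shared with Fdft1, a gene of sterol synthesis, which rose 1.97-fold. Of 4715 exon bases of Ctsa, 495 (10.5%) are shared with Pltp, a phospholipid transfer protein, which rose 9.30-fold from 12.3 ± 1.88 to 114 ± 7.78 CPM, and 324 (6.87%) with Neurl2. The share of Ctsa and Ctsb counts that comes from these genes was not tested.

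Ctsl encodes cathepsin L, a cysteine endopeptidase, and lies on chromosome 13 from 64363214 to 64370306. Before differentiation it was the most abundant cathepsin, at 314, 324, 311, 335 and 338 FPKM in replicates 1 to 5, and on day 6 its level was 309, 286, 397, 370 and 371 FPKM. In FPKM, day 6 replicates 1 and 2 lay below every library before differentiation, and replicates 3, 4 and 5 lay above every one of them. In CPM, day 6 replicate 1 (617 CPM) lay within the earlier range of 607 to 658 CPM and the other 4 lay as in FPKM. Over all libraries the means were 636 ± 20.4 and 688 ± 88.1 CPM (SD, n = 5), and the log2 fold change of 0.11 did not pass the test (standard error 0.0719, edgeR adjusted p = 0.155, and DESeq2 adjusted p = 0.125).

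Among the cathepsins past the filter in both conditions, Ctsl was the only one whose call changed when day 6 libraries were left out. Without day 6 replicates 1 and 2 the log2 fold change was 0.25 (edgeR adjusted p = 1.80e-06), without replicate 2 alone it was 0.19 (edgeR adjusted p = 0.00545), and without replicates 3, 4 and 5 it was -0.05 (edgeR adjusted p = 0.358). Among protein-coding genes, those with the most similar pattern of log2 CPM over the 10 libraries were Apobr, a receptor for apolipoprotein B (Pearson r = 0.985), Cebpg, a transcription factor of the C/EBP family (r = 0.965), and Mmp28, a matrix metalloproteinase (r = 0.952). Apobr had 2.80 to 5.21 CPM before differentiation, 2.92 and 1.82 CPM in day 6 replicates 1 and 2, and 11.5, 10.5 and 8.13 CPM in replicates 3, 4 and 5. These 10 points share their libraries and their conditions, so the correlations are a description.

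Ctsz encodes cathepsin Z, a cysteine carboxypeptidase also known as cathepsin X, and lies on chromosome 2 from 174427493 to 174439039. Its level was 65.6, 72.9, 71.3, 76.8 and 83.8 FPKM before differentiation and 76.1, 86.4, 98.7, 97.2 and 94.5 FPKM on day 6. Day 6 replicate 1 fell within the earlier range, and the other 4 libraries lay above it. The gene rose 1.24-fold, the smallest change among the cathepsins that passed the test, from 106 ± 9.54 to 131 ± 13.0 CPM (SD, n = 5). The difference on the log2 scale was 0.31 (standard error 0.0731, edgeR adjusted p = 0.00101). It was 0.41 without day 6 replicates 1 and 2 and 0.21 without replicates 3, 4 and 5 (edgeR adjusted p = 6.20e-08 and 0.0112).

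**Figure D2:**
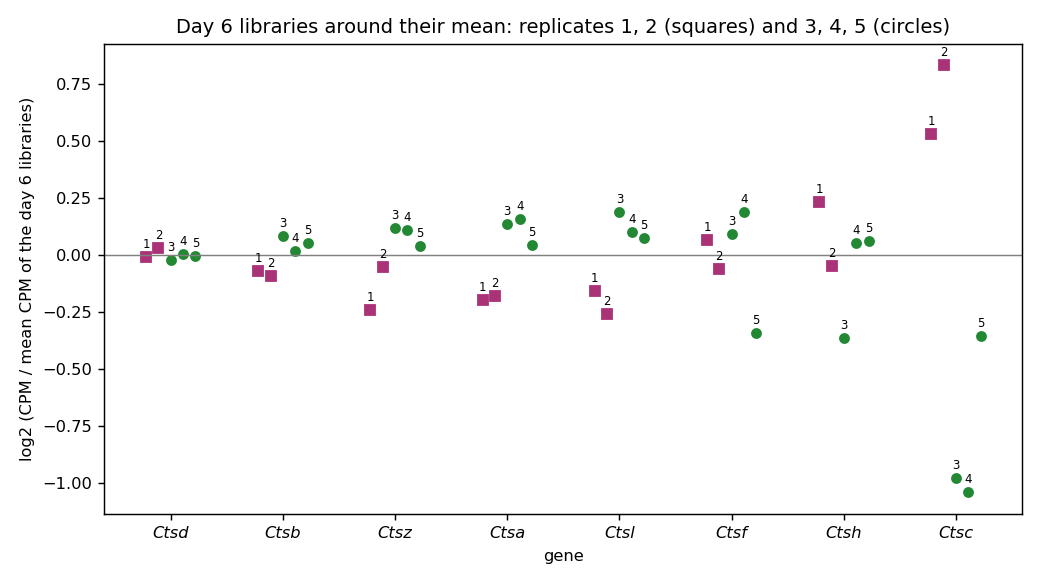
Level of the 8 tested cathepsins in each day 6 library, as log2 of its CPM over the mean CPM of the 5 day 6 libraries (y axis, 0 is the mean). Replicates 1 and 2 (squares) lie below replicates 3, 4 and 5 (circles) for Ctsb, Ctsz, Ctsa and Ctsl and above them for Ctsc, where they had 3.81 and 4.70 CPM against 1.28 to 2.07 CPM, while the points of Ctsd lie together.

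The largest fold changes were found in cathepsins with low levels. Ctsf encodes cathepsin F, a cysteine protease with a long cystatin-like propeptide, and lies on chromosome 19 from 4855129 to 4860912. Its level was 1.36, 1.20, 0.937, 0.622 and 0.881 FPKM before differentiation and 7.68, 7.01, 7.91, 8.40 and 5.93 FPKM on day 6. The conditions did not overlap, and day 6 replicates 1 and 2 lay within the range of the others. It rose 7.43-fold, from 1.96 ± 0.558 to 14.7 ± 1.98 CPM (SD, n = 5). The difference on the log2 scale was 2.89 (standard error 0.168, edgeR adjusted p = 2.04e-11). Its end lies 311 bases from the end of Actn3, the fast-fiber alpha-actinin, on the opposite strand, which rose 11.8-fold from 61.0 ± 3.17 to 721 ± 45.7 CPM, and the part of reads running past the end of Actn3 in the counts of Ctsf was not tested.

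Ctsc encodes cathepsin C, a dipeptidyl peptidase known for activating the granule proteases of leukocytes, and lies on chromosome 7 from 88278085 to 88310888. It had 1, 0, 2, 0 and 1 counts in replicates 1 to 5 before differentiation and 77, 88, 22, 21 and 32 counts on day 6. Every day 6 library was above every earlier one, and replicates 1 and 2 were highest. The level went from 0.0417 ± 0.0411 to 2.64 ± 1.54 CPM (SD, n = 5). The fitted log2 fold change was 5.72, a 52.9-fold difference whose size rests on 4 counts before differentiation, and it is given as a description with no test. Without day 6 replicates 1 and 2 the log2 fold change was 4.96, without replicates 3, 4 and 5 it was 6.44.

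The protein-coding genes with a pattern most like that of Ctsc were Btrc, Abr and Lynx1, with Pearson r from 0.995 to 0.997 over the 10 libraries. As for Ctsl, the points share their libraries and conditions, and Ctsc was near 0 before differentiation, so these correlations are a description. Lynx1, which encodes a modulator of acetylcholine receptors, had 29.1 to 38.6 CPM before differentiation, 173 and 184 CPM in day 6 replicates 1 and 2, and 107 to 116 CPM in replicates 3, 4 and 5. Of the macrophage markers, Cd14 was the 1 gene that passed the filter, and it fell 1.63-fold (edgeR adjusted p = 0.000450). The summed level of the 15 macrophage and leukocyte markers in the table was 9.26 to 13.2 CPM before differentiation and 5.44 to 9.63 CPM on day 6, most of it from Cd14. C1qa, C1qb, C1qc, Emr1 and Tyrobp were at 0 in every library. Itgam, the integrin CD11b, had 0 counts before differentiation and 11, 28, 2, 16 and 9 counts on day 6. With no filter on low counts Itgam was called higher by edgeR (adjusted p = 3.04e-07) and by DESeq2 (adjusted p = 8.58e-08). The part of leukocytes in the level of Ctsc was not tested.

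Ctsh encodes cathepsin H, a cysteine aminopeptidase, and lies on chromosome 9 from 90054152 to 90076089. Its counts were 33, 30, 51, 31 and 48 before differentiation and 84, 64, 45, 60 and 57 on day 6. In CPM the conditions overlapped, at 1.62 to 2.84 and 2.74 to 4.15 CPM, through day 6 replicate 3. It rose 1.67-fold (log2 fold change 0.74, standard error 0.200, edgeR adjusted p = 0.00247).

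Ctsk and Ctss, which lie side by side on chromosome 3 from 95499286 to 95509362 and from 95526786 to 95556403, were near the limit of detection. Ctsk, the collagen-degrading cathepsin K of osteoclasts, had 7, 2, 4, 4 and 3 counts before differentiation and 10, 4, 7, 15 and 4 counts on day 6, and the ranges overlapped. With no filter on low counts its log2 fold change was 1.06 (edgeR adjusted p = 0.129), so a difference was not detectable at this depth. Ctss, the cathepsin S that trims the invariant chain in antigen-presenting cells, had 4 counts in replicate 2 before differentiation, 2 counts in replicate 2 of day 6 and 0 in the other 8 libraries. Of 8 osteoclast markers, Calcr and Dcstamp had no count, Acp5 had 2 counts before differentiation and 11 on day 6, and the summed level was 26.5 to 30.2 and 25.0 to 41.0 CPM. The 2 markers of that list that passed the filter were Atp6v0d2, a subunit of the lysosomal proton pump, which had 14 counts before differentiation and 1346 on day 6 and passed only through day 6, and the transcription factor Nfatc1, which fell 1.64-fold (edgeR adjusted p = 3.14e-07).

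The total of the 10 cathepsins was higher on day 6, with a smaller share of Ctsl and a larger share of Ctsd. The summed level was 714 to 779 FPKM before differentiation and 1097 to 1251 FPKM on day 6, a ratio of means of 1.59, and as a share of all counts it went from 0.179% to 0.193% up to 0.279% to 0.318%. Ctsl made up 43.7% ± 0.562 of the summed FPKM before differentiation and 29.3% ± 2.24 on day 6, and Ctsd 25.3% ± 0.525 and 40.2% ± 2.59 (SD, n = 5). The ratio of Ctsd to Ctsl in FPKM was 0.562 to 0.610 before differentiation and 1.51, 1.67, 1.18, 1.27 and 1.29 in day 6 replicates 1 to 5, so that the order of these genes was the same in every library of a condition. Ctsb kept 16.4% in both conditions, Ctsz moved from 9.96% to 7.67% and Ctsa from 4.44% to 5.60%. The other 5 genes together stayed below the level of Ctsa in every library. These sums are a description, and no test was run on them.

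**Figure D3:**
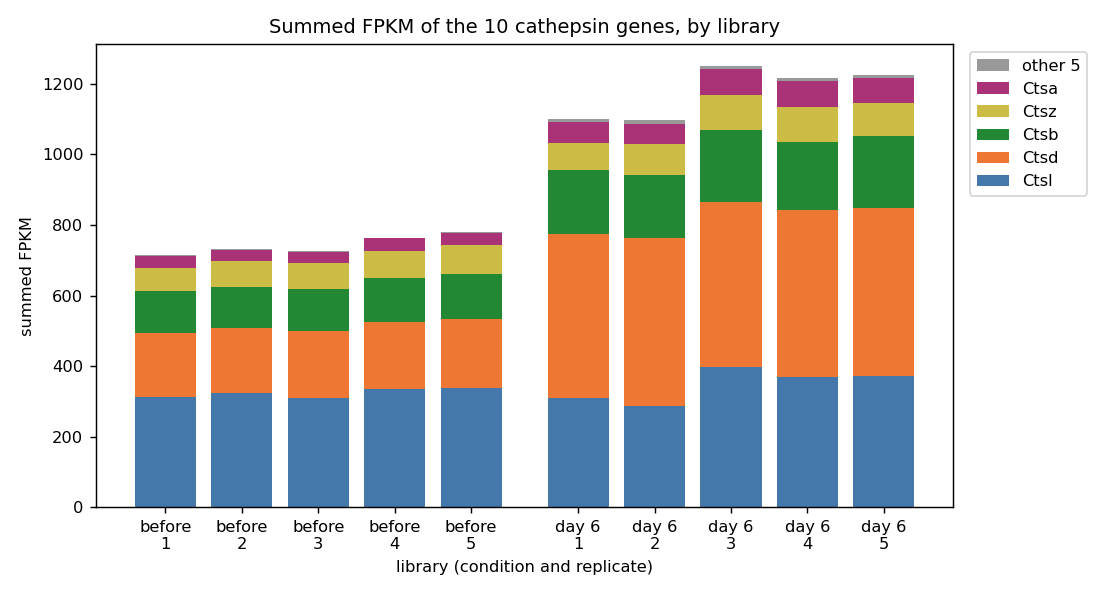
Summed FPKM of the 10 cathepsin genes (y axis, from 0) in each library, stacked by gene. The day 6 bars reach 1097 to 1251 FPKM against 714 to 779 FPKM before differentiation, with the largest growth in the Ctsd segment, and the bars of day 6 replicates 1 and 2 are shorter than those of replicates 3, 4 and 5.

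Among the other 13 genes with a cathepsin name, only Ctso and Ctsw passed the filter. Ctso, a cysteine cathepsin, rose 3.33-fold from 5.22 ± 0.897 to 17.4 ± 2.52 CPM (SD, n = 5, edgeR adjusted p = 1.06e-09), and Ctsw, a cathepsin known from cytotoxic lymphocytes, fell 2.08-fold from 3.76 ± 0.621 to 1.82 ± 0.513 CPM (edgeR adjusted p = 0.000252). Of the others, 8 had no count in any library, among them genes of the placental cluster on chromosome 13, and Ctsg had 1 count before differentiation and 26 on day 6, Ctsm 6 and 12, and Cts3 2 and 0.

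Inhibitors of cathepsins moved in both directions. Of 14 genes of the list of protease inhibitors, 8 were tested and 7 of these passed the filter in both conditions. Of the 7, 5 were higher and 2 were lower, against 40.1% and 39.7% of all genes tested. Among the 5 higher genes only Cst3 and Ctla2a inhibit cysteine cathepsins, and both lower genes, Cstb and Cst6, do so. Cst3, which encodes the secreted inhibitor cystatin C, rose 2.52-fold from 105 ± 6.83 to 265 ± 16.0 CPM (SD, n = 5, edgeR adjusted p = 2.12e-13), and Ctla2a, a mouse protein related to the propeptide of cathepsin L, rose 4.40-fold from 2.37 CPM (edgeR adjusted p = 1.58e-10). Cstb, the cytosolic inhibitor stefin B, fell 1.39-fold from 88.5 ± 3.93 to 63.6 ± 3.90 CPM (edgeR adjusted p = 2.56e-07), and Cst6, cystatin E/M, fell 3.30-fold (edgeR adjusted p = 3.30e-11). The largest rise in the list was that of Serping1 (6.04-fold, edgeR adjusted p = 2.08e-14), which inhibits complement C1 rather than cathepsins, and Reck of the same list acts on metalloproteinases. Serpinb6a, the member with the highest mean FPKM, which inhibits serine proteases, had a log2 fold change of 0.13 (edgeR adjusted p = 0.0169), which did not pass without replicates 2 and 3 before differentiation (edgeR adjusted p = 0.0712).

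The mannose 6-phosphate receptors that sort cathepsins to the lysosome moved in opposite directions. In the list of sorting and maturation as a whole, 20 of 21 genes were tested. Of these, 11 were higher and 4 were lower, against 40.1% and 39.7% of all genes tested. Taking both directions, the share called was near the 79.8% of all genes tested, and the median log2 fold change was 0.23. Igf2r, the large mannose 6-phosphate receptor, rose 3.40-fold from 46.7 ± 2.65 to 159 ± 7.87 CPM (SD, n = 5, edgeR adjusted p = 2.22e-15), while M6pr, the small one, fell 1.42-fold from 151 ± 2.19 to 106 ± 2.51 CPM (edgeR adjusted p = 3.13e-09). Sort1, the sorting receptor sortilin, had the largest rise, 14.6-fold from 3.56 ± 0.724 to 51.8 ± 2.46 CPM (edgeR adjusted p = 4.15e-16). Of the enzyme that makes the mannose 6-phosphate tag, the catalytic precursor Gnptab fell 1.89-fold (edgeR adjusted p = 5.35e-10) and the gamma subunit Gnptg rose 2.16-fold (edgeR adjusted p = 1.68e-09). None of these genes overlapped between the conditions, and the same held for 14 of the 20 tested genes of the list and 69.1% of all genes tested.

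From the same list, Lgmn, the protease legumain that processes several of them, rose 1.89-fold from 71.1 ± 1.52 to 134 ± 3.24 CPM (SD, n = 5, edgeR adjusted p = 1.11e-12). Psap, the saposin precursor that is cut by CTSD, had the highest mean FPKM of the sorting and maturation list and rose 1.31-fold (edgeR adjusted p = 1.20e-06). Grn, progranulin, which is cut into granulins in the lysosome, rose 2.19-fold from 144 ± 8.96 to 316 ± 51.1 CPM (edgeR adjusted p = 2.08e-07).

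In the list of acid hydrolases that are not cathepsins, 36 of 36 genes were tested. Of these, 29 were higher and 4 were lower, against 40.1% and 39.7% of all genes tested, with a median log2 fold change of 0.84. Hgsnat of this list, an acetyltransferase and not a hydrolase, was among the lower genes (log2 fold change -0.22, edgeR adjusted p = 0.0124). Hexa, a subunit of beta-hexosaminidase and the member with the highest mean FPKM, rose 2.99-fold (edgeR adjusted p = 4.04e-15), Cpq, a carboxypeptidase, had the largest rise at 8.51-fold (edgeR adjusted p = 1.82e-16), and Gusb, beta-glucuronidase, had the largest fall at 1.62-fold (edgeR adjusted p = 1.64e-08). Of 29 genes of the lysosomal membrane and its proton pump, 29 were tested, 26 were higher and 1 was lower, against the same background, with a median of 0.71. Cd63, a tetraspanin, had the highest mean FPKM and rose 1.22-fold, and Ctns, the cystine exporter, had the largest rise at 3.85-fold (edgeR adjusted p = 2.52e-05 and 4.42e-14). Npc2 was the gene of this list called lower (log2 fold change -0.13, edgeR adjusted p = 0.0378), though it encodes a soluble cholesterol carrier and not a membrane or pump protein. Its call was lost under most of the alternatives, for example with DESeq2 (adjusted p = 0.0698) and without day 6 replicate 2 (edgeR adjusted p = 0.136).

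**Figure D4:**
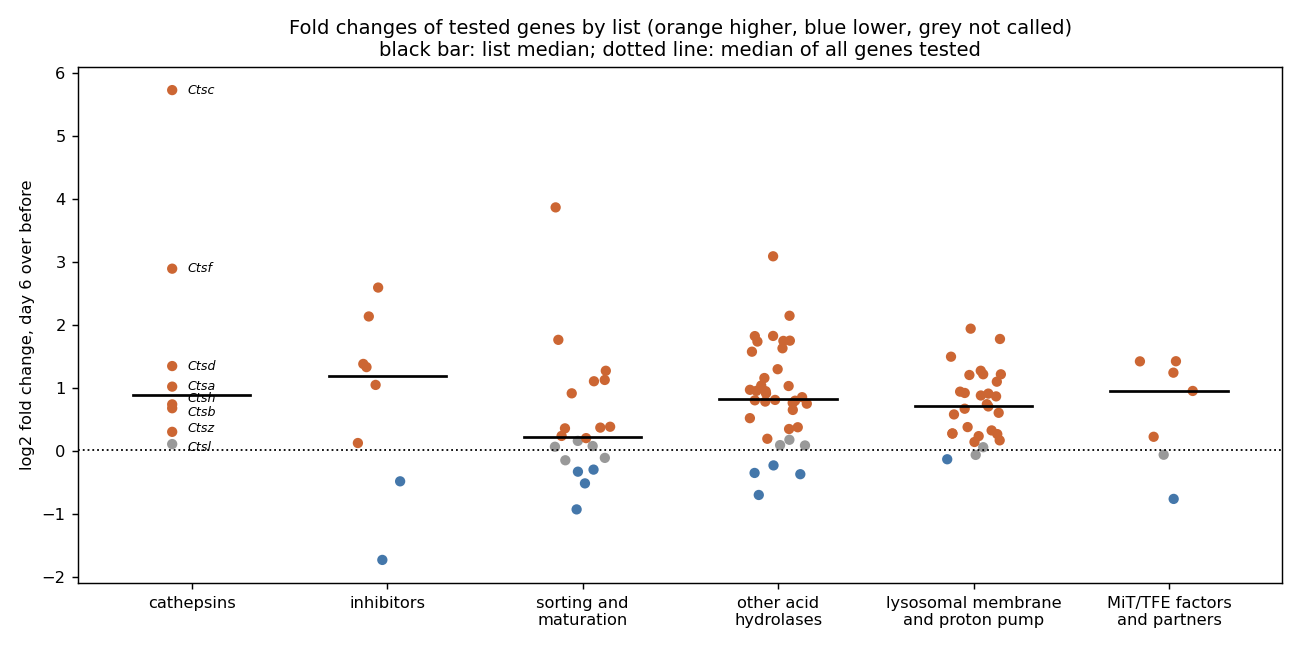
Log2 fold change, day 6 over before differentiation (y axis), of each tested gene in 6 lists (x axis), with the list median as a black bar and the median of all genes tested as a dotted line. All list medians lie above the dotted line at 0.01. The highest are those of the protease inhibitors (1.19, or 1.05 without Ctla2b, which passed the filter only through day 6) and of the lysosomal transcription factors and partners (0.96). The inhibitor list also holds genes that do not inhibit cathepsins. Its cysteine cathepsin inhibitors Cst3, Ctla2a, Cstb and Cst6 stood at 1.33, 2.14, -0.48 and -1.72. Among the transcription factors, Tfeb and Mitf stood at 1.43 and 1.42 and Tfe3 at -0.76, and the median of 0.96 is that of the partner Fnip1. The cathepsins (0.88, or 0.74 without Ctsc), the other acid hydrolases (0.84) and the membrane and proton pump genes (0.71) follow, and sorting and maturation (0.23) is closest to the line.

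The factors that control lysosomal genes did not move as 1 group. Tfeb rose 2.69-fold from 8.48 ± 0.617 to 22.7 ± 6.95 CPM (SD, n = 5). The difference on the log2 scale was 1.43 (standard error 0.181, edgeR adjusted p = 6.82e-06). It had 28.0 and 32.0 CPM in day 6 replicates 1 and 2 and 18.2, 15.7 and 19.6 CPM in replicates 3, 4 and 5. Ctsc was likewise higher in replicates 1 and 2, Ctsa, Ctsb, Ctsl and Ctsz were lower in them, and Ctsd, Ctsf and Ctsh did not split in this way. Without replicates 3, 4 and 5 its log2 fold change was 1.86, and without replicates 1 and 2 it was 1.09. Mitf rose 2.68-fold (edgeR adjusted p = 8.86e-10), and Tfe3 fell 1.69-fold from 70.5 ± 3.94 to 41.8 ± 3.84 CPM (edgeR adjusted p = 6.81e-09). Flcn, whose protein folliculin regulates these factors, had the highest mean FPKM of the list and rose 2.37-fold (edgeR adjusted p = 6.77e-13). Of 8 genes in this list, 7 were tested, 5 were higher and 1 was lower, against 40.1% and 39.7% of all genes tested.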

How the data were processed

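RNA was sequenced in 5 libraries of C2C12 cells before differentiation and 5 on day 6 of differentiation, grouped by the stage in the labels, with the day taken from the paper. The authors filtered paired-end reads with Trimmomatic, mapped them to mm10 with STAR 2.5 and made the deposited raw counts per gene from uniquely mapped reads with HTSeq 0.6.1. From these counts, gene lengths and library totals the authors derived the deposited FPKM, which was checked on the table. The labels name a kit that does not mark strand and the paper a directional one.

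From the counts, genes were filtered with filterByExpr, scaled with TMM factors and tested with the robust quasi-likelihood test of edgeR 4.0.16 in R 4.3.3, with condition as the only term, on 13085 of 35275 genes. Each p-value was adjusted by the Benjamini-Hochberg method with a threshold of 0.05. CPM values use the scaled library totals. Each standard error was the absolute log2 fold change divided by the root of F. FPKM was used to compare levels between genes and to describe levels and sums per condition, and every test was run on counts. Library totals of 15367909 to 21622527 counts set the precision, and errors are SDs over libraries.

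Alternatives were DESeq2 1.42.0, other factors and filters, thinned counts, the replicate number as a block, libraries left out, Yam1 and Lars2 left out, and a limit of 1 on the log2 fold change. The cathepsins, the gene lists (11, written from general knowledge) and the tests were chosen with earlier results of these data known. Named genes are the 10 cathepsins, the most abundant and most changed member of each list (with 5 CPM or more in 1 condition) and fixed partners, and any others were chosen with their values known. Sequences are from RefSeq (GRCm38.p6) and exon overlaps from GENCODE M21.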

Additional observations from a re-analysis of the deposited data

Results flagged for a closer look

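In each condition, the library farthest from the other 4 was compared with a limit for 5 samples (a gap of 0.71 of the range) for each cathepsin, which gave 20 groups, and chance passes this limit in about 1 of 20. Ctss passed it in both conditions, through replicate 2 before differentiation at 0.215 CPM and replicate 2 of day 6 at 0.107 CPM. These values are 4 counts and 2 counts, and the other libraries had 0 counts.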

How the results depend on the processing

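Ctsc passed the filter on low counts only through day 6, so its direction was fixed and it is left out here. Of the 7 cathepsins past the filter in both conditions, 6 kept their direction in every alternative in which they were tested. The calls of these 6 changed only where a limit of 1 on the log2 fold change was added. Ctsl was the exception. Leaving out 1 library at a time gave it log2 fold changes of 0.0662 to 0.191, of which that without day 6 replicate 2 (0.19) passed the test. It was 0.25 and passed without day 6 replicates 1 and 2, and -0.0509 without replicates 3, 4 and 5. Under these last settings Glb1 stood at 0.32 and -0.22. With the limit of 1, 3 of the 7 cathepsins were higher, and 2370 genes were higher and 1925 lower over all genes. Ctsb (0.68), Ctsh (0.74) and Ctsz (0.31) no longer passed with that limit. Counting Ctsc, which passed the filter only through day 6, the number of higher cathepsins was 7 with all libraries, 5 with a filter of 5 CPM in 5 libraries, which left out Ctsc and Ctsh, 4 with the limit of 1, and 7 or 8 otherwise.

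With the replicate number as a block, 7 cathepsins were higher, counting Ctsc. The correlation of same-numbered libraries was between -0.0452 and 0.00996, so the numbers do not pair the libraries. That fit changed no call of a cathepsin. Over all genes the median log2 fold change lay between -0.00470 and 0.0913 over the alternatives. In CPM, which is not scaled to length, the shares of the summed level and the order of the genes differ from those in FPKM. For example, Ctsb (574 CPM) stood above Ctsd (397 CPM) before differentiation, and Ctsb (921 CPM) above Ctsl (688 CPM) on day 6. Ctsl before differentiation and Ctsd on day 6 were highest in both units. Depth limits Ctsk and Ctss, with 20 and 40 counts and 4 and 2 counts in the conditions, and the size of the fold change of Ctsc.
Without a filter on low counts, and with DESeq2, 1 macrophage marker (Itgam) was called higher.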
